A study of Mus musculus with 18 samples.

Results

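Inguinal fat of mice without a tumour was compared between day 7 and day 21 after a control injection. The members are all libraries labelled PBS, 8 of the 18 in the series: 4 from day 7 and 4 from day 21, joined by gene ID over the 21899 IDs that both deposited tables share. The mice were male C57BL/6J and received phosphate-buffered saline (PBS) under the skin, as controls for mice given cells of Lewis lung carcinoma (LLC), a transplantable mouse lung tumour line. No transgene or altered allele is named for any group, and the mice's age is not stated. The 10 LLC libraries, 5 at day 7 (called pre-cachexia in the labels) and 5 at day 21 (called cachexia), served to estimate the spread and to set the change in tumour-bearing mice beside that in controls. The comparison measures what differs between the days without a tumour, which takes in time, collection and differences among the samples themselves. Each day was deposited as a table of its own, so day, age, collection and table changed together and cannot be told apart. Titles number the samples of a group and do not say whether each came from a separate mouse, and the p-values cover no more than the scatter among the deposited samples, part of which may be technical.

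Inguinal fat is a white depot under the skin in which lipid-storing adipocytes lie in a matrix with progenitors and fibroblasts, resident macrophages, mast cells, nerves, and blood and lymph vessels. Adipocytes take up, store and release lipid and secrete adiponectin and leptin, and in the inguinal depot of mice some can become beige and burn fuel through UCP1. Progenitors and fibroblasts, many of which carry the receptor PDGFRA, lay down most of the matrix. Connective-tissue mast cells store chymases, tryptases and carboxypeptidase A3 in granules, and GATA transcription factors, which bind DNA around the letters GATA, are needed for their gene expression.

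The mast cell protease genes fell together at day 21, so the stretch of 250 bases before the start of 3 of them is shown. Sequences are from RefSeq on GRCm38.p6 and read 5′ to 3′ on the minus strand, where all 3 genes lie. Cma1 (chymase 1) has chr14:55944676-55944925, Mcpt4 (mast cell protease 4) has chr14:56062311-56062560 and Cpa3 (carboxypeptidase A3) has chr3:20242182-20242431. Capitals mark GATAA or its reverse complement TTATC.
Cma1: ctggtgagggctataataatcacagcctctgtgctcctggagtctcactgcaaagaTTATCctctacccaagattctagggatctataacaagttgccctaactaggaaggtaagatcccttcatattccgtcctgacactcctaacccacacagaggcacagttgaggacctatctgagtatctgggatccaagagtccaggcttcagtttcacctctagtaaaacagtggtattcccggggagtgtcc
Mcpt4: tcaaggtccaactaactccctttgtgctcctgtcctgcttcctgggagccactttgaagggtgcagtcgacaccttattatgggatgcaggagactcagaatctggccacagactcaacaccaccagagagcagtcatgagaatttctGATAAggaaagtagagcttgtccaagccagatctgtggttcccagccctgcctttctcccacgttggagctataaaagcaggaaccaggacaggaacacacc
Cpa3: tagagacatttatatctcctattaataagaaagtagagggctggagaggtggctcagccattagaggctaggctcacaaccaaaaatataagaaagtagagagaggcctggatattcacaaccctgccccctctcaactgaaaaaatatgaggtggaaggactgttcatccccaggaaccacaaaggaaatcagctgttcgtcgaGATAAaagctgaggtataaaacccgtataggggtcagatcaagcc
Each of the 3 windows held 1 match. Of the 13 genes on the mast cell list, 11 were matched to 13 RefSeq windows of this length, and 6 windows (46.2%), each of a different gene, held GATAA on either strand. Of all 32536 distinct windows of the same length, 22.5% did. The windows were also searched on both strands for TATAAA, held by 12.3% of all windows and found 0, 1 and 2 times in Cma1, Mcpt4 and Cpa3, and for CANNTG, held by 66.2% and found 1, 0 and 2 times. Matches of different motifs were counted independently, and a match describes letters and not a bound site.

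Total counts per PBS library ran from 15772635 to 17844344, between 15516 and 15755 genes had a count, and mitochondrially encoded genes took 9.82% to 18.9% of counts. The 7 adipocyte markers summed to between 13748 and 20439 CPM (counts scaled to a common library total) in the 8 libraries, so the label of fat holds in each. Single-gene CPM values below were scaled with TMM factors as well, and sums over a list were not. Day 21 library 4 stood apart from its group. On average its rank correlation reached 0.979 with the 4 day 7 libraries and 0.949 with the other day 21 libraries, whereas day 21 libraries 1 to 3 had 0.947 to 0.954 with day 7 and 0.965 to 0.974 within day 21. Skeletal muscle markers summed to 9437 CPM in day 7 library 3 and to 6508 and 1388 CPM in day 21 libraries 1 and 2, and to between 28.3 and 88.6 CPM in the other libraries. With a muscle score as covariate 51 genes were higher and 265 lower at day 21.

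At day 21 genes that fell in control fat included mast cell, matrix, progenitor and lymphatic genes. Metabolic genes had small positive differences, nearly all short of the threshold in the fit of all libraries. Of 13975 genes tested with edgeR's quasi-likelihood test, 449 (3.21%) passed an adjusted p of 0.05: 352 were lower (2.52%) and 97 higher (0.694%). By the median falls were larger, with a log2 difference of -1.17 over the genes that fell and 0.56 over those that rose. The largest single rise was 5.70 and the largest single fall -4.73. Over all genes tested the median was 0.01, and 50.9% were higher. The 4 values of one day did not overlap with the 4 of the other in 8.38% of genes as falls and 7.92% as rises, against which absence of overlap in a single gene is to be read. In bulk tissue, fewer cells of a type and less RNA per cell cannot be told apart.

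The counts of calls changed with single libraries, most of all with day 21 library 4. That library was the highest of its group in 286 of the 352 falls, and the lowest in 65 of the 97 rises. Without it 1202 genes fell (8.5% of 14146 tested) and 490 rose (3.46%), and 448 of the 449 calls were kept. Leaving out any other PBS library left 41 to 165 falls and 0 to 18 rises. The 41 falls came without day 21 library 2, and no gene passed as a rise without day 21 library 2, day 7 library 2 or day 7 library 4. A total of 40 calls, all falls, were kept in all 8 of these fits. With limma on log2(TPM + 1), a scale on which the median of all genes lay at -0.17, 404 genes fell and 15 rose. DESeq2 gave 696 falls and 413 rises, and the 8 PBS libraries alone gave 460 and 338.

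Mast cell protease genes fell steeply. Of the 13 mast cell markers, all tested, 5 fell and 0 rose, and the median log2 difference was -2.48, the lowest of the lists with all libraries. Without day 21 library 4 it was -3.38, above the -3.98 of lymphatic markers. In each gene below, values are given for libraries 1 to 4 in order, with the log2 difference, its SE and the edgeR adjusted p. Cma1 measured 7.99, 10.8, 8.81 and 15.03 CPM at day 7 and 0.602, 0.818, 0.848 and 1.54 CPM at day 21 (log2 difference -3.47 ± 0.37, adjusted p = 0.000292). All 4 day 21 values, that of library 4 included, lay below 2 CPM, and the lowest day 7 value was 7.99 CPM. Mcpt4, another chymase, measured 10.3, 13.9, 9.55 and 19.998 CPM at day 7 and 0.843, 1.32, 0.261 and 2.03 CPM at day 21 (log2 difference -3.58 ± 0.40, adjusted p = 0.000292). Cpa3 measured 6.55, 7.95, 8.25 and 15.4 CPM at day 7 and 0.723, 0.189, 0.782 and 1.11 CPM at day 21 (log2 difference -3.75 ± 0.42, adjusted p = 0.000292). Tpsb2, which encodes a tryptase, measured 7.66, 13.3, 7.21 and 17.02 CPM at day 7 and 1.33, 0.567, 0.652 and 2.33 CPM at day 21 (log2 difference -3.20 ± 0.48, adjusted p = 0.00317). No day 21 value of these 4 genes reached the lowest day 7 value, and their calls were kept without any 1 of the 8 libraries. Mrgprb1, a receptor of the Mrgprb family and the fifth gene past the threshold, measured 1.31, 3.05, 1.29 and 4.50 CPM at day 7 and 0.361, 0.189, 0 and 0.799 CPM at day 21 (log2 difference -2.88 ± 0.64, adjusted p = 0.0263). Its call was not made without day 7 library 2 or 4 or day 21 library 1, 2 or 3, with adjusted p up to 0.113. Kit, the stem cell factor receptor, had 15.8, 19.4, 36.5 and 15.3 CPM at day 7 and 14.5, 18.4, 33.4 and 11.3 CPM at day 21 (log2 difference -0.17, adjusted p = 0.867), and the transcription factor gene Gata2 had 14.9, 13.1, 16.7 and 9.71 CPM at day 7 and 12.2, 10.8, 14.02 and 14.7 CPM at day 21 (log2 difference -0.07, adjusted p = 0.877). Both had differences near 0 that changed sign without some of the libraries, and both are also known from other cells. Cma1 and Mcpt4 belong to a family of closely related protease genes, and RSEM divides reads between such copies by estimation.

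In tumour-bearing mice the 4 mast cell protease genes had positive differences, none past the threshold. Their log2 differences between day 21 and day 7 in LLC were 0.41 for Cma1, 0.62 for Mcpt4, 0.41 for Cpa3 and 0.89 for Tpsb2, and the list median was 0.63. The test of the difference between the PBS and LLC changes passed for all 4, with edgeR adjusted p of 0.00151, 0.00151, 0.00177 and 0.00927, and in every fit without 1 PBS library. Over all genes 0.415% passed this test.

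**Figure D1:**
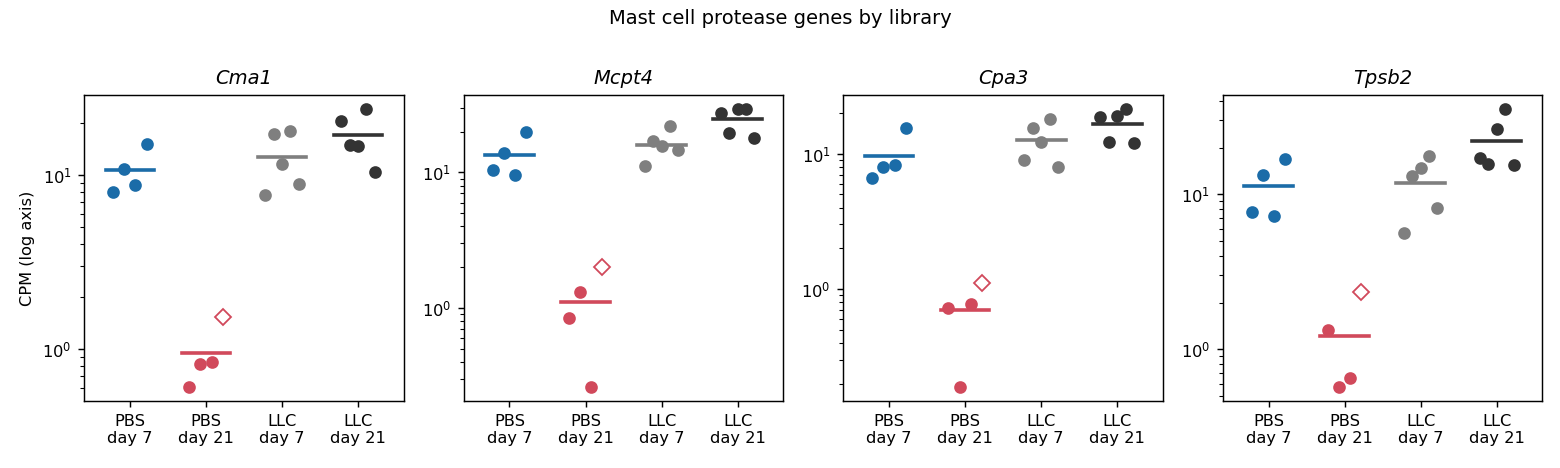
CPM on a log axis of 4 mast cell protease genes in each library of the 4 groups, with the group mean as a line and PBS day 21 library 4 as an open diamond. The 4 PBS day 21 libraries lie below the libraries of the other groups in each panel, and the log2 difference in PBS runs from -3.75 for Cpa3 to -3.20 for Tpsb2.

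Matrix genes fell, with laminin chains of the basement membrane lower in all 4 day 21 libraries. Of 24 matrix genes other than collagens, 8 fell, 0 rose and 23 had a negative difference, with a median of -0.93. Lama2, which encodes the laminin alpha 2 chain, measured 225, 267, 230.3 and 323 CPM at day 7 and 53.004, 58.5, 38.01 and 104 CPM at day 21 (log2 difference -2.05 ± 0.29, adjusted p = 0.00269). Lamc1, the laminin gamma 1 chain, measured 811, 799, 791 and 926 CPM at day 7 and 449, 378, 378 and 492 CPM at day 21 (log2 difference -0.97 ± 0.16, adjusted p = 0.00702). All 4 day 21 values of both genes lay below every day 7 value, and both calls were kept without any 1 library. Tnxb, which encodes tenascin XB, measured 709.5, 862, 715 and 996 CPM at day 7 and 132, 125, 101 and 362 CPM at day 21 (log2 difference -2.19 ± 0.38, adjusted p = 0.00805), and its call was lost only without day 21 library 2, at an adjusted p of 0.0501. Fn1, fibronectin, measured 2658, 2847, 2371 and 3532 CPM at day 7 and 38.3, 57.9, 41.7 and 996 CPM at day 21 (log2 difference -3.33 ± 0.88, adjusted p = 0.0482). Day 21 library 4 had a Fn1 level between the other day 21 libraries and day 7, and the adjusted p without it was 6.87e-06. Nid1 (nidogen 1), Fbln1 (fibulin 1), Fbn1 (fibrillin 1) and Dcn (decorin) completed the 8, with log2 differences of -1.20, -2.70, -2.61 and -1.38. The count of 8 was 2 without day 21 library 2, 3 without day 7 library 2 or 4 or day 21 library 1 or 3, 5 without day 7 library 1, 6 without day 7 library 3 and 14 without day 21 library 4.

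Collagen genes had a median of -0.97 and 16 of 18 were lower, but 0 passed the threshold, against 5 without day 21 library 4. Col14a1, a fibril-associated collagen, measured 208, 223, 205 and 241 CPM at day 7 and 7.65, 16.2, 8.15 and 194 CPM at day 21 (log2 difference -1.96 ± 0.77, adjusted p = 0.161). Day 21 library 4 was near the day 7 values and the other 3 libraries were far below them, and without it the adjusted p was 7.42e-06. Col6a1, a collagen VI chain, measured 653, 659, 620.5 and 875 CPM at day 7 and 320.3, 298, 200.02 and 499.99 CPM at day 21 (log2 difference -1.09 ± 0.35, adjusted p = 0.093).

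Proteases that cut the matrix and their inhibitors included 4 falls and 0 rises among 19 genes, with a median of -0.74. Mmp9, a gelatinase, measured 17.9, 35.6, 17.6 and 32.5 CPM at day 7 and 8.31, 7.43, 4.30 and 5.28 CPM at day 21 (log2 difference -2.03 ± 0.27, adjusted p = 0.00149), and its call was kept without any 1 library. Plau, the urokinase plasminogen activator, measured 84.1, 74.1, 68.8 and 80.3 CPM at day 7 and 29.1, 26.9, 29.5 and 41.9 CPM at day 21 (log2 difference -1.27 ± 0.24, adjusted p = 0.0126), and day 21 library 4 was again the highest of its group. Plat, the tissue plasminogen activator, measured 59.5, 61.8, 49.2 and 68.1 CPM at day 7 and 5.78, 7.55, 5.93 and 34.6 CPM at day 21 (log2 difference -2.15 ± 0.46, adjusted p = 0.0235). Adamts5, an aggrecanase, fell as well (log2 difference -1.01, adjusted p = 0.0426). The count of 4 was 1 without day 21 library 2, 2 without day 7 library 2 or 4 or day 21 library 1 or 3, 3 without day 7 library 1 and 8 without day 21 library 4.

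Markers of progenitors and fibroblasts followed the matrix. Of 20, 5 fell and 0 rose, 19 had a negative difference, and the median was -1.31. Pdgfra, the receptor that marks these cells, measured 143, 159, 126 and 205 CPM at day 7 and 45.3, 43.2, 33.3 and 102 CPM at day 21 (log2 difference -1.50 ± 0.29, adjusted p = 0.0137). Day 21 library 4 lay between the other day 21 libraries and day 7. Dcn, a proteoglycan of fibroblasts, measured 1487, 1601, 1341 and 1984 CPM at day 7 and 452, 459.6, 369 and 1189 CPM at day 21 (log2 difference -1.38 ± 0.30, adjusted p = 0.0264). Pi16, a marker of early progenitors, measured 646, 679, 569 and 717 CPM at day 7 and 12.3, 25.2, 21.1 and 240.01 CPM at day 21 (log2 difference -3.13 ± 0.75, adjusted p = 0.0334). Day 21 libraries 1 to 3 lay between 12.3 and 25.2 CPM and library 4 at 240.01 CPM, still below day 7. Smoc2, a matricellular protein gene, measured 113, 92.9, 94.4 and 117 CPM at day 7 and 53.5, 40.4, 30.5 and 37.7 CPM at day 21 (log2 difference -1.36 ± 0.26, adjusted p = 0.0141), and there library 4 was within the range of its group. Anxa3, an annexin gene and the fifth call, had a log2 difference of -1.44 (adjusted p = 0.0382). The count of 5 was 0 without day 7 library 4 or day 21 library 2, 1 without day 21 library 1 or 3, 2 without day 7 library 1 or 2, 3 without day 7 library 3 and 13 without day 21 library 4. F3, tissue factor and the only member with a positive value, had a log2 difference of 0.10 (adjusted p = 0.839).

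**Figure D2:**
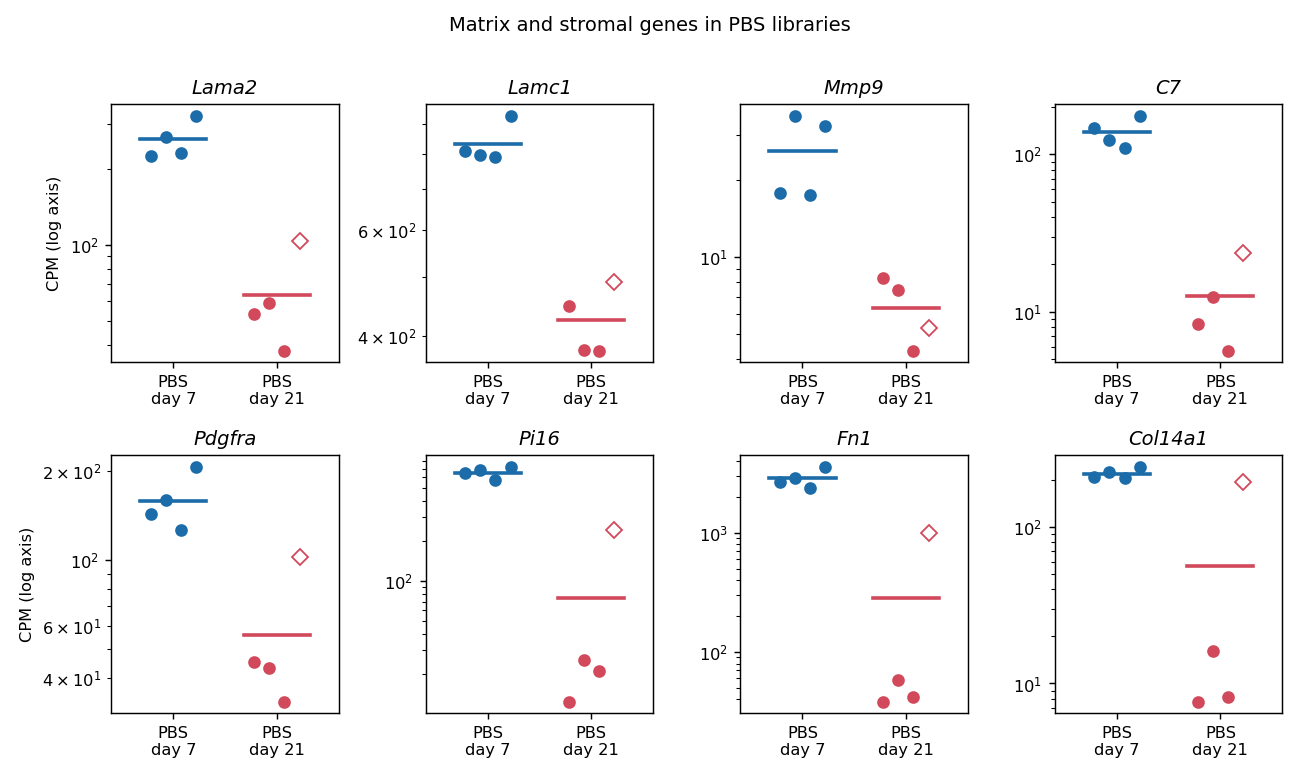
CPM on a log axis of 8 matrix and stromal genes in the 8 PBS libraries, with the mean of each day as a line and day 21 library 4 as an open diamond. In Lama2, Lamc1, Mmp9 and C7 all 4 day 21 libraries lie below day 7, and in Pi16, Fn1 and Col14a1 library 4 lies far above the other 3.

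Resident macrophage markers were low in day 21 libraries 1 to 3 and in the day 7 range in library 4. The 19 markers summed to 2109, 2519, 2217 and 3485 CPM at day 7 and 444, 455, 258 and 2852 CPM at day 21. Cd163, a scavenger receptor of resident macrophages and the only one of 19 markers past the threshold, measured 115, 174, 138 and 177 CPM at day 7 and 24.2, 24.5, 19.04 and 97.6 CPM at day 21 (log2 difference -1.87 ± 0.41, adjusted p = 0.0263). All 19 had a negative difference, with a median of -1.10. Csf1r, the receptor on which macrophages depend, measured 201, 249, 228 and 335 CPM at day 7 and 54.5, 47.5, 31.8 and 222 CPM at day 21 (log2 difference -1.51 ± 0.47, adjusted p = 0.0877), and its day 21 library 4 lay inside the day 7 range. Without that library 18 of the 19 markers fell and the median was -2.43. The count of 1 was 0 without day 7 library 2 or 4 or day 21 library 1, 2 or 3. Of 13 markers of lipid-associated macrophages, 8 had a positive difference and 0 passed, with a median of 0.25 that was -0.25 without day 21 library 4.

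Complement genes and chemokine genes included falls too. Of 21 complement genes, 4 fell and 0 rose, with a median of -0.81. C7, a component of the membrane attack complex, measured 148, 123, 110.4 and 175 CPM at day 7 and 8.43, 12.5, 5.67 and 23.5 CPM at day 21 (log2 difference -3.47 ± 0.50, adjusted p = 0.00269), and its call was kept without any 1 library. Serping1, the C1 inhibitor, measured 611, 643, 537 and 796 CPM at day 7 and 97.5, 99.3, 66.2 and 325 CPM at day 21 (log2 difference -2.14 ± 0.39, adjusted p = 0.011). C6, another component of the attack complex, had a log2 difference of -1.76 (adjusted p = 0.047). Cfd, the complement factor that adipocytes secrete as adipsin, had 10289, 9641, 10372 and 7936 CPM at day 7 and 16392, 14795, 12975 and 13439.9 CPM at day 21 and did not pass (log2 difference 0.59 ± 0.35, adjusted p = 0.354). The complement count was 1 without day 21 library 2, 2 or 3 without any other but day 21 library 4, and 11 without that one. Of 30 chemokine and receptor genes, 3 fell and 0 rose, with a median of -0.59. Ackr3, a scavenging receptor for CXCL12, measured 96.3, 99.5, 94.3 and 122 CPM at day 7 and 15.8, 20.5, 15.97 and 55.1 CPM at day 21 (log2 difference -1.94 ± 0.35, adjusted p = 0.00964). Ccl24, an eotaxin, measured 15.2, 11.2, 9.92 and 10.3 CPM at day 7 and 2.17, 2.14, 2.02 and 5.65 CPM at day 21 (log2 difference -1.95 ± 0.39, adjusted p = 0.0169), and Ccr2, the monocyte receptor for CCL2, had a log2 difference of -1.55 (adjusted p = 0.0277). The chemokine count was 0 without day 21 library 2, 1 without day 21 library 1 or 3, 2 without day 7 library 2 or 4 and 12 without day 21 library 4.

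Among genes of TGF-beta and BMP signalling, 7 of 25 fell and 0 rose, with a median of -0.43. Id2, a transcriptional regulator induced by BMP signals, measured 17.4, 15.5, 19.3 and 17.2 CPM at day 7 and 9.999, 10.2, 10.1 and 11.2 CPM at day 21 (log2 difference -0.74 ± 0.11, adjusted p = 0.00282). All 4 day 21 values lay close together and below every day 7 value. Ltbp1, which binds latent TGF-beta in the matrix, measured 89.2, 109, 82.6 and 116 CPM at day 7 and 19.8, 18.2, 17.1 and 49.3 CPM at day 21 (log2 difference -1.93 ± 0.30, adjusted p = 0.0036). Fst, the secreted activin antagonist follistatin, measured 27.1, 27.9, 20.5 and 29.5 CPM at day 7 and 6.75, 9.76, 9.97 and 15.1 CPM at day 21 (log2 difference -1.34 ± 0.20, adjusted p = 0.00317). Calls of these 3 genes were kept without any 1 library. The receptor genes Tgfbr2, Acvrl1 and Tgfbr3 and the signal transducer Smad9 also fell, with log2 differences of -0.88, -0.56, -0.66 and -1.49. The count of 7 was 3 or 4 without any PBS library other than day 21 library 4, and 11 without that one.

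Of 25 genes of the Wnt pathway, 5 fell and 0 rose, with a median of -0.35. Wnt5b, a ligand, measured 2.88, 4.48, 2.40 and 2.05 CPM at day 7 and 0.542, 0.630, 0.587 and 0.983 CPM at day 21 (log2 difference -2.10 ± 0.40, adjusted p = 0.0137). Axin2, a feedback target of Wnt signalling through beta-catenin, measured 17.4, 20.4, 22.2 and 17.2 CPM at day 7 and 8.43, 7.18, 14.02 and 6.02 CPM at day 21 (log2 difference -1.11 ± 0.25, adjusted p = 0.0287). All 4 day 21 libraries were below day 7 in both. The ligand genes Wnt11, Wnt2b and Wnt10b, the last known to hold back fat cell formation, had log2 differences of -1.91, -1.20 and -2.75. The count of 5 was 0 without day 7 library 2 or day 21 library 1 or 2, 1 without day 7 library 1, 3 or 4 or day 21 library 3, and 10 without day 21 library 4.

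Vessel genes fell in part. Of 8 lymphatic markers, 3 fell, and all 8 had a negative difference with a median of -2.19. Mmrn1, multimerin 1, measured 2.03, 1.26, 2.09 and 1.58 CPM at day 7 and 0, 0.126, 0.130 and 0.123 CPM at day 21 (log2 difference -4.11 ± 0.75, adjusted p = 0.0108), and day 21 library 4 was as low as the rest. Its call was lost only without day 21 library 2, at an adjusted p of 0.0529. Sema3d, a semaphorin, measured 15.8, 15.8, 13.2 and 16.4 CPM at day 7 and 0.181, 0.504, 0.717 and 4.61 CPM at day 21 (log2 difference -3.34 ± 0.64, adjusted p = 0.0141), and Pdpn, podoplanin, had a log2 difference of -1.64 (adjusted p = 0.0461). The count of 3 was 0 without day 21 library 2, 1 without day 21 library 3, 2 without any day 7 library or day 21 library 1, and 5 without day 21 library 4. Of 16 endothelial markers, 3 fell and 7 had a positive difference, with a median of -0.09. Tek, the angiopoietin receptor TIE2, measured 105, 108, 85.5 and 114 CPM at day 7 and 47.4, 40.2, 61.02 and 62.7 CPM at day 21 (log2 difference -0.97 ± 0.15, adjusted p = 0.0036), kept without any 1 library. Vwf (von Willebrand factor) and Plvap, which forms the diaphragms of endothelial pores, had log2 differences of -1.24 and -1.24 (adjusted p = 0.0457 and 0.0479). Both calls were lost without any 1 PBS library other than day 21 library 4, with adjusted p up to 0.168.

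Among genes that reached 1 CPM and did not overlap between days, 5 of the 12 largest falls lay outside these lists. Kcnn3, a calcium-activated potassium channel gene, had 66 counts over the day 7 libraries and 2 over the day 21 libraries, a ratio of summed counts of 0.0283 with an exact 95% interval of 0.00335 to 0.106 that covers counting error only. Pkp1, plakophilin 1 of desmosomes, measured 0.851, 1.55, 1.85 and 2.81 CPM at day 7 and 0.120, 0.0630, 0.130 and 0 CPM at day 21 (log2 difference -4.38 ± 0.82, adjusted p = 0.0131). Adamts16, a metalloprotease gene, measured 7.07, 5.02, 5.42 and 4.91 CPM at day 7 and 0.241, 0.126, 0 and 0.983 CPM at day 21 (log2 difference -4.01 ± 0.86, adjusted p = 0.0235). Day 21 library 4 was the lowest for Pkp1 and the highest of its group for Adamts16. Smpd3, neutral sphingomyelinase 2, measured 138, 122, 130.4 and 176 CPM at day 7 and 3.07, 3.97, 3.32 and 40.98 CPM at day 21 (log2 difference -3.46 ± 0.74, adjusted p = 0.0235). The orphan receptor gene Gpr165 had a log2 difference of -3.83 (adjusted p = 0.0469). Each of these 5 calls was lost without day 21 library 2, at adjusted p from 0.0696 for Pkp1 to 0.162 for Gpr165. Kcnn3 was lost also without day 21 library 3 and Pkp1 without day 7 library 4. Adamts16, Smpd3 and Gpr165 were lost also without day 7 library 2 or 4 or day 21 library 1 or 3, Adamts16 and Gpr165 without day 7 library 1 and Gpr165 without day 7 library 3.

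Metabolic genes of adipocytes had small positive differences, and nearly all missed the threshold in the fit of all libraries. Of 21 fatty acid oxidation genes 20 had a positive difference, with a median of 0.61, and 1 passed. Acads, the short-chain acyl-CoA dehydrogenase, measured 119, 109, 114 and 94.1 CPM at day 7 and 194, 200.1, 201 and 135 CPM at day 21 (log2 difference 0.74 ± 0.20, adjusted p = 0.0485). The 4 day 21 libraries were above all day 7 libraries, with library 4 the nearest to them. The call of Acads, and with it the count of 1, was lost without any 1 PBS library other than day 21 library 4 (adjusted p up to 0.166), with no filter, with the muscle covariate and with limma on TPM, and the count was 4 without that library. Nuclear genes of the respiratory chain were positive in 22 of 22 (median 0.53), branched-chain amino acid breakdown in 20 of 21 (median 0.43), lipogenesis in 20 of 21 (median 0.39), triglyceride assembly in 20 of 21 (median 0.39) and mature adipocyte genes in 21 of 23 (median 0.35). None of these 5 lists had a member past the threshold, against 2 to 5 without day 21 library 4 in 4 of them and 0 in lipogenesis. With the 8 PBS libraries alone, 5 fatty acid oxidation, 5 respiratory chain and 8 branched-chain amino acid breakdown genes rose. In lipogenesis 0 rose, in triglyceride assembly 4 and among mature adipocyte genes 5. DESeq2 gave 4, 1, 4, 0, 4 and 5 in the same order. As rises the 2 days did not overlap in 13, 7, 12, 0, 5 and 8 members, against 7.92% of all genes. On the log2(TPM + 1) scale the same medians lay lower, between 0.13 and 0.39 with fatty acid oxidation included, and the median of all genes at -0.17. Cidec, a lipid droplet protein gene, measured 1541, 1542, 1456 and 1247 CPM at day 7 and 2307, 2513, 2493 and 2096 CPM at day 21 (log2 difference 0.70 ± 0.19, adjusted p = 0.0522). Cholesterol synthesis had 14 of 25 genes higher, a median of 0.01 that turned to -0.20 on the log2(TPM + 1) scale, and 0 calls.

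Antigen presentation genes included 3 rises among 16 and 0 falls, with a median of 0.12 that turned to -0.12 on the log2(TPM + 1) scale. The list was split, with 9 positive differences and 7 negative ones, down to -1.11. Its score, the mean log2 CPM relative to the 8 PBS libraries, was -0.07, -0.17, -0.36 and 0.20 at day 21. At day 7 the score ran from 0.03 to 0.19. With the PBS libraries alone and without day 21 library 4, 7 members rose and 7 fell. H2-K1, a classical class I heavy chain, measured 1518, 1443, 1613 and 1318 CPM at day 7 and 2245, 2193, 2102 and 2045 CPM at day 21 (log2 difference 0.54 ± 0.13, adjusted p = 0.0322). Tap2, a peptide transporter subunit, measured 84.004, 84.6, 80.9 and 77.7 CPM at day 7 and 116, 105, 112 and 88.97 CPM at day 21 (log2 difference 0.37 ± 0.09, adjusted p = 0.0346), and Psmb8, an immunoproteasome subunit, measured 55.7, 47.6, 56.1 and 47.1 CPM at day 7 and 77.9, 76.4, 72.1 and 75.5 CPM at day 21 (log2 difference 0.55 ± 0.13, adjusted p = 0.0356). In each of the 3 genes no library of one day overlapped with the other. All 3 calls were lost without any 1 PBS library other than day 21 library 4, at adjusted p up to 0.131, and with limma on TPM. Of 14 histone genes, 14 had a positive difference and 2 rose. H2ac18, an H2A gene, measured 12.2, 10.5, 11.03 and 6.32 CPM at day 7 and 31.3, 24.05, 24.2 and 22.7 CPM at day 21 (log2 difference 1.35 ± 0.29, adjusted p = 0.0227), and H2bc4, an H2B gene, had a log2 difference of 0.36 (adjusted p = 0.0496). Without a library the histone count was 0 (day 7 library 2 or 4, day 21 library 1, 2 or 3), 1 (day 7 library 1 or 3) or 3 (day 21 library 4). Most histone messages lack a poly(A) tail and histone and class I genes have near-identical copies, so these levels are uncertain.

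Other rises were scattered over genes of different roles. Slc5a6, the transporter of biotin and pantothenate, measured 21.8, 22.8, 25.4 and 23.2 CPM at day 7 and 55.5, 60.9, 59.5 and 32.01 CPM at day 21 (log2 difference 1.16 ± 0.23, adjusted p = 0.0169). Its day 21 libraries 1 to 3 were at more than 55 CPM and library 4 at 32.01 CPM. Chac1, which degrades glutathione, measured 2.36, 1.38, 2.34 and 1.05 CPM at day 7 and 8.91, 11.96, 3.52 and 5.84 CPM at day 21 (log2 difference 2.08 ± 0.49, adjusted p = 0.0321). Hpn, a membrane serine protease, Dcst1, a membrane protein gene, Lurap1, an adaptor gene, and Ssc4d, a scavenger receptor cysteine-rich gene, had log2 differences of 1.65, 1.54, 1.40 and 1.36. Adjusted p for the 4 lay between 0.0309 and 0.0469, and each of the 6 calls was lost without day 7 library 2 or 4 or day 21 library 2.

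Some genes known chiefly from liver and intestine rose at day 21, unevenly over the libraries. Ttr, the thyroid hormone carrier transthyretin, measured 0.0655, 0.179, 0.246 and 0.0585 CPM at day 7 and 0.542, 8.88, 0.717 and 9.22 CPM at day 21 (log2 difference 5.06 ± 1.12, adjusted p = 0.0263). Serpina1a, alpha-1-antitrypsin, measured 1.05, 0.837, 1.23 and 0.468 CPM at day 7 and 1.26, 20.5, 4.82 and 17.5 CPM at day 21 (log2 difference 3.61 ± 0.81, adjusted p = 0.0269), and Alb, serum albumin, measured 36.9, 41.2, 32.5 and 25.5 CPM at day 7 and 56.7, 208, 69.8 and 160.1 CPM at day 21 (log2 difference 1.86 ± 0.48, adjusted p = 0.0451). These 3 were highest in day 21 libraries 2 and 4 and lowest of the day in library 1. Serpina1a has near-identical copies between which reads were divided by estimation. Pigr, the receptor that carries antibody across epithelia, measured 0.327, 0.179, 0.308 and 0.234 CPM at day 7 and 0.482, 2.83, 4.17 and 3.01 CPM at day 21 (log2 difference 3.29 ± 0.68, adjusted p = 0.021). It was highest in day 21 libraries 2, 3 and 4. The genes of a hepatocyte list, drawn up after the values were seen, summed to 44.2, 46.96, 36.7 and 30.6 CPM at day 7 and 60.4, 370.3, 89.2 and 337 CPM at day 21. Those of an enterocyte list, drawn up likewise, summed to 1.59, 11.05, 1.75 and 13.3 CPM at day 7 and 9.32, 56.3, 102 and 52.4 CPM at day 21. These sums took in members too low to be tested. All 16 and all 13 tested genes had a positive difference, of which 7 and 3 passed, and the hepatocyte score of day 21 library 1 lay within the day 7 range. The 7 were 0 without any 1 day 7 library or day 21 library 2, 4 without day 21 library 3 and 9 without day 21 library 4. The 3 were 0 without day 7 library 2 or 4 or day 21 library 2 or 3, 1 without day 7 library 1 or 3 and 8 without day 21 library 4. Because the lists were drawn up from these values they support nothing, and the part of other tissues in these values was not tested. All 4 calls of the genes named here were lost without day 7 library 2 or 4 or day 21 library 2, with adjusted p up to 0.168.

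**Figure D3:**
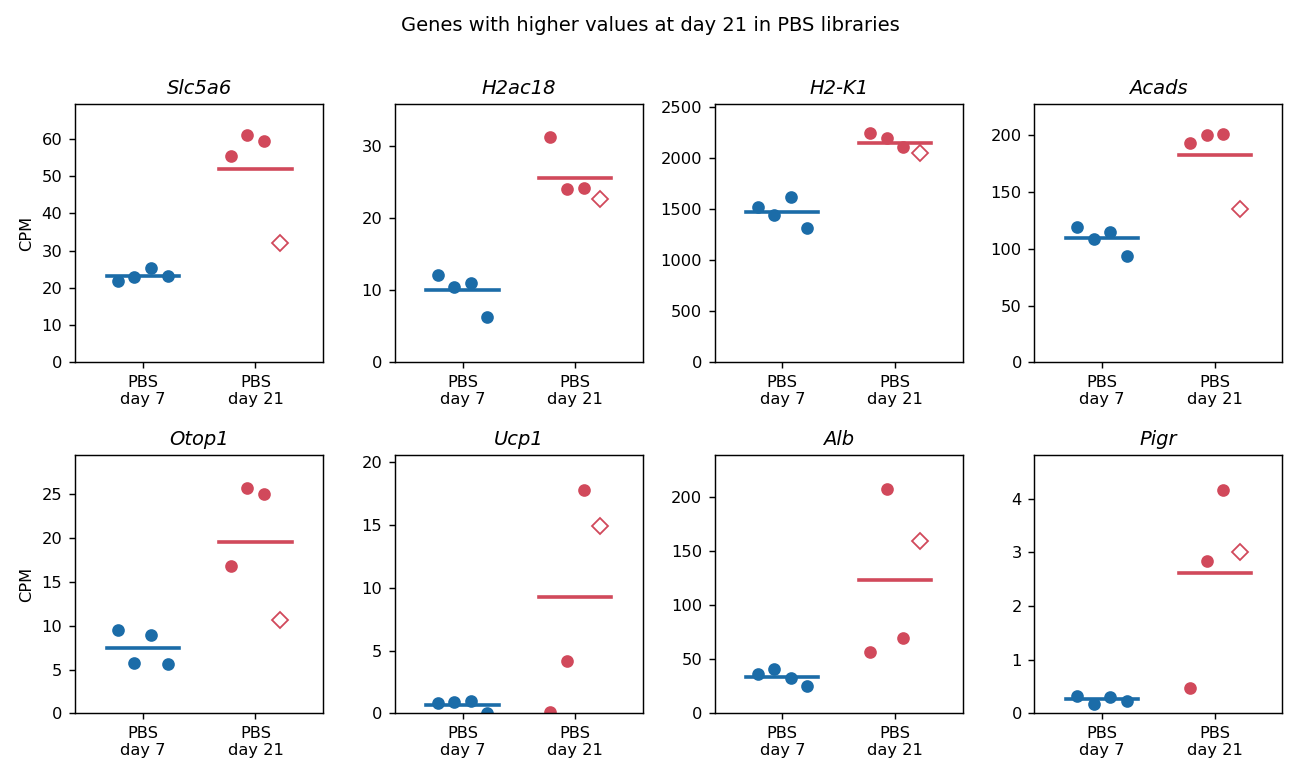
CPM of 8 genes in the 8 PBS libraries on linear axes from 0, with the mean of each day as a line and day 21 library 4 as an open diamond. Slc5a6, H2ac18, H2-K1, Acads and Otop1 do not overlap between days, and in Ucp1, Alb and Pigr day 21 library 1 lies lowest of its day.

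Otop1, the gene of the proton channel otopetrin 1 named in the series title, did not pass the adjusted threshold in either test of control fat. It measured 9.56, 5.80, 8.93 and 5.61 CPM at day 7 and 16.8, 25.7, 25.03 and 10.6 CPM at day 21, without overlap. The exact two-sided permutation test of log2(CPM + 1) gave p = 0.0286, the smallest that 4 against 4 libraries allow, and 0.0571 adjusted over the 4 genes tested this way. The edgeR test gave a log2 difference 1.39 ± 0.57, adjusted p = 0.183. In LLC it fell (log2 difference -2.39, adjusted p = 0.0399), and the difference between PBS and LLC passed (edgeR adjusted p = 0.044), though it did so only without day 21 library 4 among the 8 fits without a PBS library (adjusted p up to 0.125). Ucp1, the uncoupling protein of brown and beige fat, measured 0.851, 0.897, 0.986 and 0.0585 CPM at day 7 and 0.120, 4.15, 17.8 and 14.9 CPM at day 21 (exact permutation p = 0.114, or 0.152 adjusted; edgeR log2 difference 3.72 ± 1.25, adjusted p = 0.107). Day 21 library 1 was within the day 7 range, and libraries 2 to 4 were above it. Brown and beige fat genes were positive in 17 of 21, with a median of 0.71 and 0 calls. Adipoq, adiponectin, measured 2177, 2202, 2204 and 1895 CPM at day 7 and 2539, 2784, 2763 and 2328 CPM at day 21 (exact permutation p = 0.0286, or 0.0571 adjusted over the 4 genes; edgeR log2 difference 0.30 ± 0.22, adjusted p = 0.463), and Lep, leptin, measured 927, 791, 894 and 696 CPM at day 7 and 639.9, 489, 928 and 248 CPM at day 21 (exact permutation p = 0.171, also when adjusted; edgeR log2 difference -0.52 ± 0.41, adjusted p = 0.497).

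Of 19 clock genes, 1 fell and 0 rose. Clock, which encodes a core activator of the daily rhythm, measured 86.5, 106, 101 and 113 CPM at day 7 and 73.1, 67.6, 56.7 and 75.2 CPM at day 21 (log2 difference -0.58 ± 0.13, adjusted p = 0.0285). Its call was kept only without day 7 library 1 or day 21 library 4, and was at an adjusted p of 0.113 without day 21 library 2. Arntl, the partner of CLOCK, measured 19.4, 18.4, 20.1 and 19.1 CPM at day 7 and 7.95, 4.09, 2.28 and 8.66 CPM at day 21 (log2 difference -1.74 ± 0.50, adjusted p = 0.0666), with all 4 day 21 values below day 7. Dbp, a clock output gene, measured 27.8, 24.2, 17.2 and 14.97 CPM at day 7 and 51.6, 77.4, 111 and 43.4 CPM at day 21 (log2 difference 1.75 ± 0.65, adjusted p = 0.14). The hour of collection is not given in the sources used here.

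**Figure D4:**
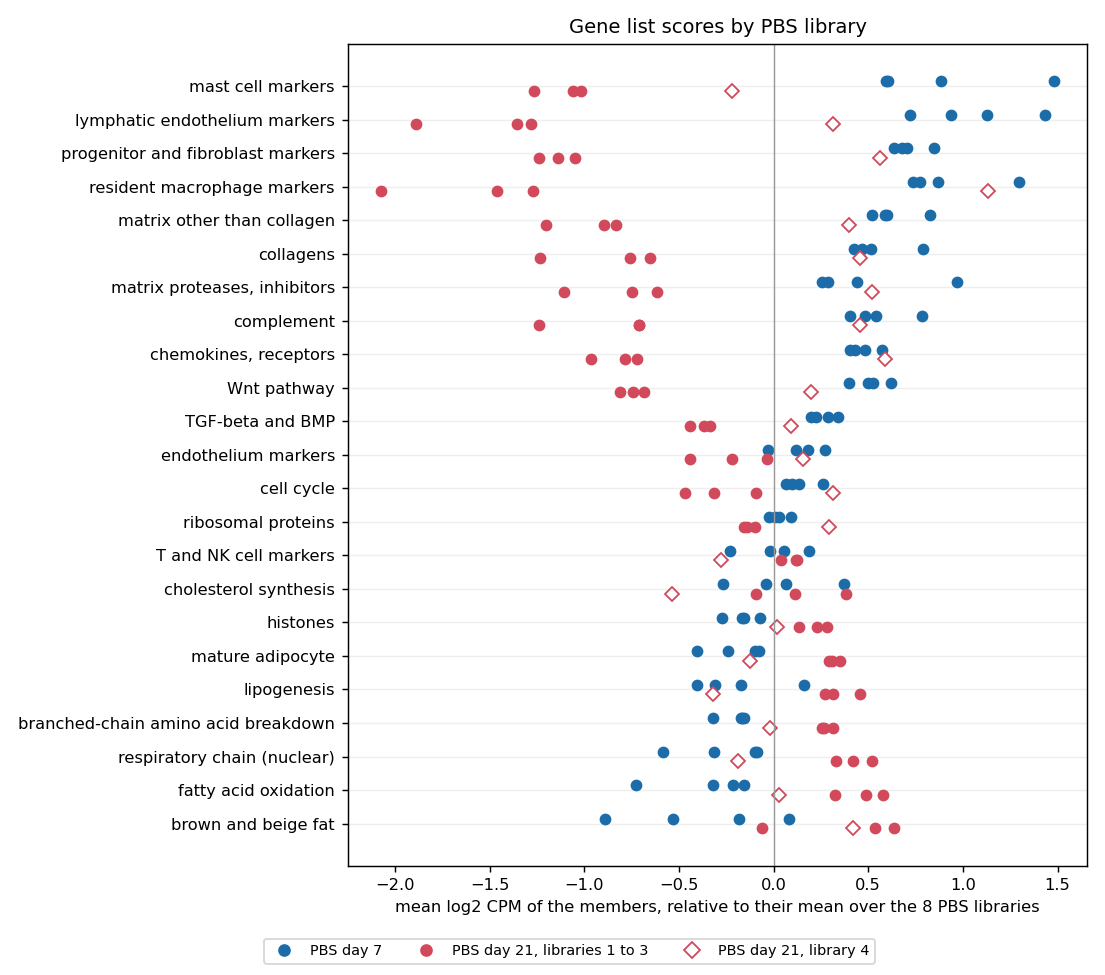
Score of each gene list in each PBS library, as the mean log2 CPM of the tested members relative to their mean over the 8 libraries, with day 7 above and day 21 below in each row and day 21 library 4 as an open diamond. Library 4 lies at or near day 7 for resident macrophage markers (1.13) and progenitor markers (0.56), and between the days for mast cell markers (-0.22).

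The 449 genes were set beside the change in tumour-bearing mice. The LLC comparison of day 21 with day 7 shares no library with the PBS comparison, and 248 genes passed in it (1.77%). Of the 352 PBS falls 243 had a negative LLC difference, with a median of -0.15, and of the 97 rises 53 had a positive one, with a median of 0.02. Over all genes tested the median LLC difference was 0.05, so the rises in PBS were not shifted upward in LLC. Of the 449, 21 passed in LLC as well: 16 fell in both, 2 rose in both and 3 moved in opposite directions. The 16 included Lama2 (-1.09 in LLC), Lamc1 (-0.72), Fst (-0.76), Smoc2 (-1.10), Nid1 (-0.93) and Igsf1, an immunoglobulin superfamily gene (-3.32 in PBS and -3.09 in LLC). The opposite changes were in Itgb7, an integrin of gut-homing lymphocytes (-1.57 in PBS and 1.50 in LLC), H2bc4 (0.36 and -0.57) and Mecr, a mitochondrial fatty acid synthesis gene (0.58 and -0.55), chosen after their values were seen.

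The test of the difference between the PBS and LLC changes passed for 58 genes in all (0.415%) and for 35 of the 449, 31 falls and 4 rises. Besides the 4 mast cell protease genes, Id2 (-0.74 in PBS and 0.23 in LLC, adjusted p = 0.00927) and H2bc4 (adjusted p = 0.00505) passed it also without any 1 PBS library. Mmrn1 (1.42 in LLC, adjusted p = 0.0191), Tek (adjusted p = 0.0415), Vwf (adjusted p = 0.0415) and Tap2 (adjusted p = 0.0292) passed it with all libraries. Mmrn1 missed it without day 21 library 1, 2 or 3, and Tek, Vwf and Tap2 missed it without any 1 PBS library other than day 21 library 4. The total was 6 to 18 without 1 PBS library other than day 21 library 4 and 1222 without that one. Laminin and follistatin genes did not pass: adjusted p was 0.194 for Lama2, 0.562 for Lamc1 and 0.253 for Fst.

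**Figure D5:**
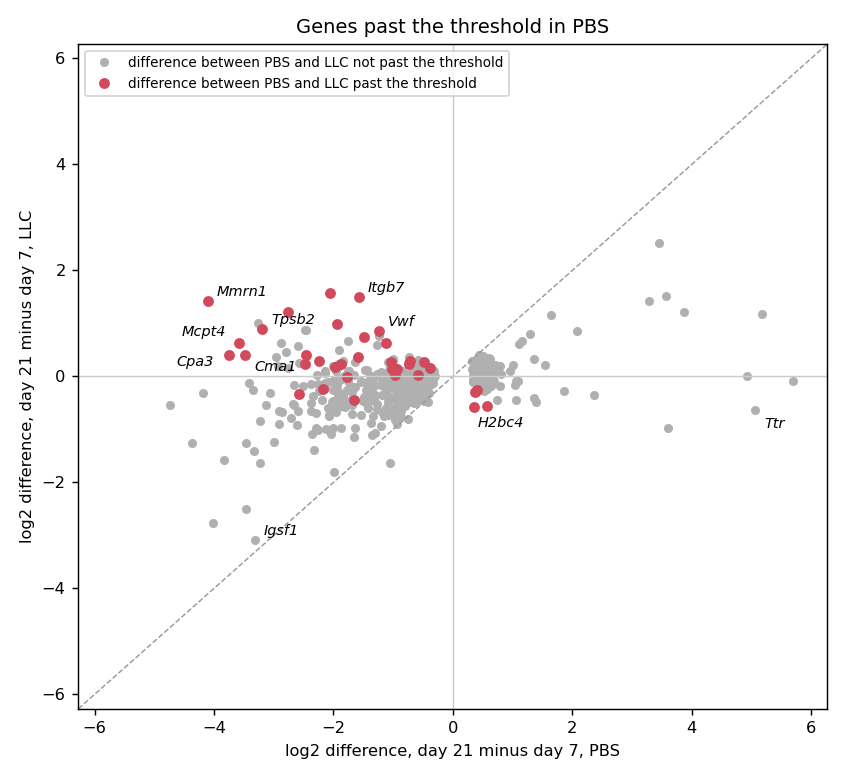
Log2 difference between day 21 and day 7 in PBS (x) and in LLC (y) for the 449 genes past the threshold in PBS, with the 35 whose difference between PBS and LLC also passed in red and the line of equal change dashed. The mast cell genes and Mmrn1 lie at the upper left, and Igsf1 (-3.32 and -3.09) lies near the dashed line.

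Lists with 0 members past the threshold included cell cycle (6 of 30 positive, median -0.31), ribosomal proteins (7 of 24, median -0.05), interferon response (9 of 24, median -0.12), heat shock (5 of 16, median -0.26) and lipolysis (16 of 20, median 0.35). T and NK cell markers (10 of 18 positive, median 0.17, or -0.06 on the log2(TPM + 1) scale) and B cell and plasma cell markers (4 of 9, median -0.07) had none either, and the latter summed to between 48.5 and 243 CPM in the 8 libraries. Of 81 named genes past the threshold, 20 were kept without any 1 library, and 17 were not past it when the 8 PBS libraries were fitted alone, at adjusted p from 0.0517 to 0.105, and Ttr and Pigr were not tested there. The 17 were Smpd3, Fn1, Tap2, Plat, Wnt11, Wnt2b, Wnt10b, C6, Dcn, Fbn1, Pi16, Anxa3, Cd163, Vwf, Plvap, Pdpn and Mrgprb1.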

How the data were processed

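Poly(A) RNA of inguinal fat was sequenced from 18 libraries, 8 of them PBS. Per the submitters' processing notes, reads were trimmed with fastp 0.23.0 and quantified with RSEM on mm10. For the aligner and annotation, none is given in the sources used here, and no strand-marking step is named, so overlapping and antisense genes may share reads. The authors deposited 1 table per day, each with RSEM expected counts, rounded to whole numbers, and TPM values per library. The authors' own means, fold changes and p-values were not used.

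The 2 tables were joined by gene ID. All 18 libraries entered 1 edgeR 4.0.16 quasi-likelihood fit of 4 group means (R 4.3.3, TMM, filterByExpr, Benjamini-Hochberg adjustment, threshold 0.05). Contrasts were the day change in PBS, in LLC and their difference. CPM values of single genes use TMM scaling over 18 libraries, and SE is the log2 difference divided by the square root of F. Sums of CPM over a list use total counts without TMM factors and take every member with a gene ID, tested or not. Exact two-sided permutation tests used log2(CPM + 1) with scipy 1.17.1. Alternatives used limma 3.58.1 and DESeq2 1.42.0. Scripts were tested on simulated data. Total counts of 15772635 to 17844344 per PBS library limit the precision for genes of few counts. The lowest chi-square per gene between libraries of 1 group was 20.0 over 12 pairs, so no 2 agreed within sampling noise.

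Named genes were 4 chosen for the study's question (Otop1, Ucp1, Adipoq, Lep), the 12 rises and 12 falls of largest size past the threshold with at least 1 CPM and no overlap between days, and up to 4 members per list with the smallest p. Other names were chosen after their values were seen. The members and gene lists were chosen with earlier results of these data known. Some items that this rule names are not reported here.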

Additional observations from a re-analysis of the deposited data

Results flagged for a closer look

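Day 21 library 4 lay far from the other 3 libraries of its group in many genes and lists. The gap between the outermost library and its nearest neighbour was taken as a share of the group's range. It exceeded Dixon's critical value for 4 samples at the 95% level in 46 of the 282 groups of 4 examined. For normally distributed values about 1 group in 20 would exceed it. Many of the genes were chosen by these same values, and single genes were judged on unlogged CPM, so that rate does not apply here. In 36 of the 46 the outermost library was day 21 library 4. Genes and lists are correlated within a library, so these are not separate events. Among list scores with day 21 library 4 outermost, the share of the range was 0.877 for mature adipocyte genes, 0.873 for ribosomal protein genes, 0.872 for Wnt pathway genes, 0.843 for chemokine genes, 0.856 for adipocyte markers, 0.893 for progenitor and fibroblast markers, 0.927 for lipid-associated macrophage markers and 0.860 for endothelial adhesion markers. Library 4 was lowest of day 21 for the 2 adipocyte lists and highest for the others. Among genes with that library highest, the share was 0.886 for Gpr165, 0.976 for Smpd3, 0.879 for Sema3d, 0.980 for Fn1, 0.889 for Dcn, 0.943 for Pi16, 0.835 for Anxa3, 0.884 for Tnxb, 0.954 for Col14a1, 0.938 for Plat, 0.917 for Ltbp1, 0.839 for Id2 and 0.882 for Ackr3. It was 0.959 for Ccl24, 0.933 for Ccr2, 0.873 for Serping1, 0.931 for Cd163, 0.902 for Vwf, 0.967 for Plvap, 0.854 for Pdpn, 0.881 for Csf1r, 0.909 for Fbln1, 0.935 for Fbn1, 0.964 for Wnt10b, 0.835 for Retnla and 0.975 for Gpc3. Library 4 was lowest for 2 genes, with 0.886 for Acads and 0.894 for Mecr.

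In the other groups the outermost library varied. The share was 0.893 for futile cycling genes (highest in day 7 library 3), 0.900 for branched-chain amino acid breakdown genes (lowest in day 7 library 4), 0.965 for skeletal muscle markers (highest in day 7 library 3), 0.855 for Ucp1 (lowest in day 7 library 4) and 0.912 for Adipoq (lowest in day 7 library 4). It was 0.943 for Mmrn1 (lowest in day 21 library 1), 0.837 for Ssc4d (highest in day 21 library 2), 0.854 for Lamc1 (highest in day 7 library 4), 0.849 for Col6a1 (highest in day 7 library 4) and 0.851 for Vars2 (lowest in day 7 library 4). Day 7 library 3 also held the highest summed skeletal muscle markers of the PBS libraries.

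The change from day 7 to day 21 differed between PBS and LLC in 17 of the genes named, by edgeR's test of the difference itself. The PBS change minus the LLC change on the log2 scale was -3.88 for Cma1, -4.20 for Mcpt4, -4.16 for Cpa3, -4.09 for Tpsb2, -0.97 for Id2 and 0.94 for H2bc4, and these 6 passed also without any 1 PBS library. It was -5.53 for Mmrn1, which missed the threshold without day 21 library 1, 2 or 3, and -3.07 for Itgb7, which missed it without day 7 library 2 or 4 or day 21 library 1, 2 or 3. For the remaining genes it was 3.78 for Otop1, -0.99 for Tek, -2.10 for Vwf, 0.66 for Tap2, 1.13 for Mecr, -2.24 for Smad9, -1.22 for Mgl2, -2.24 for Penk and -1.77 for Ntn1, and each missed the threshold without any 1 PBS library other than day 21 library 4. No cause of these differences was tested.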

How the results depend on the processing

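The count of calls in PBS depended on how the spread was estimated and on single libraries. Against 97 rises and 352 falls, the 8 PBS libraries alone gave 338 rises, no filter 61, the muscle covariate 51, DESeq2 413 rises and 696 falls, limma on log2(TPM + 1) 15 rises and limma on log2(TPM + 0.1) 10. Leaving out 1 PBS library gave 0 to 490 rises and 41 to 1202 falls, with both maxima without day 21 library 4. Fitting the 8 PBS libraries alone without that library gave 1819 rises and 2302 falls. The difference between PBS and LLC passed for 6 to 1222 genes in the fits without 1 PBS library, and the LLC change for 139 genes with no filter. In the permutation tests, where 4 against 3 libraries cannot go below 0.0571, p was 0.0571 without any 1 library for Otop1 and Adipoq. Over 95 named genes and 19 settings, 1331 of 1795 values kept their direction and side of the threshold, 417 no longer passed, 38 newly passed and 9 changed sign, all in genes that did not pass. The 9 were in F3 (range without 1 library -0.00322 to 0.215, and -0.000322 for PBS alone without day 21 library 4, -0.11 for both limma settings), Kit (-0.56 to 0.20 without 1 library, and 0.011 for PBS alone without day 21 library 4) and Gata2 (-0.21 to 0.040 without 1 library). The cause of these shifts was not tested.

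A replicate block on the library number, with the 8 PBS libraries alone, gave 705 rises and 1093 falls. Deviations of same-numbered libraries correlated at -0.259, -0.211, -0.404 and 0.501, and only number 4 correlated best with its own, so the numbers were not taken as pairs. Under the block, Serpina1a was the 1 named gene past the threshold in the fit of all libraries that was tested and did not pass. Depth limits genes near 1 CPM, such as Ttr, Pkp1 and Mmrn1.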

Other observations

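Several genes of monocytes, macrophages and dendritic cells or acting on them, some of them linked to type 2 immunity, fell in control fat at day 21. Of 12 such genes, put together after the values were seen, 6 fell, 11 had a negative difference and the median was -1.53. Because the list was put together from these values, its count and median support nothing. Ccl24 and Ccr2 are also counted among the chemokine falls above. The count of 6 was 3 without day 21 library 1 or 2, 4 without day 21 library 3, 5 without day 7 library 2 or 4 and 9 without day 21 library 4. Mgl2, a lectin of these cells, measured 48.6, 67.4, 57.2 and 65.1 CPM at day 7 and 21.2, 18.3, 12.2 and 23.8 CPM at day 21 (log2 difference -1.66 ± 0.19, adjusted p = 0.000292 by edgeR). Cd209a, a lectin of dendritic cells, measured 12.6, 13.99, 9.79 and 16.6 CPM at day 7 and 2.05, 2.90, 2.02 and 6.33 CPM at day 21 (log2 difference -1.99 ± 0.31, adjusted p = 0.00404 by edgeR). All 4 day 21 libraries were below day 7 in Mgl2 and Cd209a. Csf1, the growth factor of macrophages, had a log2 difference of -1.27, and Retnla, a marker of alternative activation, one of -2.21. Calls of Mgl2, Cd209a and Csf1 were kept without any 1 PBS library, and that of Retnla was lost without day 21 library 1 or 2. Ccl24 was lost without day 21 library 1, 2 or 3, and Ccr2 also without day 7 library 2 or 4.

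A few synthetase genes that charge mitochondrial tRNAs rose at day 21. Of 17 in a list drawn up after the values were seen, 15 had a positive difference and 4 rose, with a median of 0.34. The count of 4 was 0 without day 7 library 1, 2 or 4 or day 21 library 1, 2 or 3 and with limma on TPM, and 2 without day 7 library 3. Of 20 cytosolic synthetase genes, a list also drawn up after the values were seen, 16 were positive and 0 rose, with a median of 0.09. The 2 days did not overlap, as rises, in 5 of the 17 genes and 6 of the 20, and as falls in 0 and 1. Because both lists were drawn up after the values were seen, the contrast between them supports nothing. Vars2, the mitochondrial valyl-tRNA synthetase, measured 20.8, 20.9, 21.01 and 19.8 CPM at day 7 and 33.8, 28.4, 29.01 and 24.5 CPM at day 21 (log2 difference 0.49 ± 0.10, adjusted p = 0.0234 by edgeR). Hars2, its histidyl counterpart, measured 20.2, 19.4, 23.5 and 19.9 CPM at day 7 and 28.1, 30.4, 32.7 and 25.3 CPM at day 21 (log2 difference 0.49 ± 0.11, adjusted p = 0.0301 by edgeR). The call of Vars2 was lost without any 1 PBS library other than day 21 library 4, and that of Hars2 without day 7 library 1, 2 or 4 or day 21 library 1, 2 or 3.

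Of the 40 falls kept without any 1 PBS library, 4 more are given here, picked after their values were seen. Penk, the precursor of enkephalins, measured 20.5, 25.8, 20.5 and 28.3 CPM at day 7 and 3.85, 3.71, 1.89 and 6.39 CPM at day 21 (log2 difference -2.58 ± 0.36, adjusted p = 0.00241 by edgeR). Gpc3, a cell-surface proteoglycan, measured 96.1, 65.1, 69.3 and 86.4 CPM at day 7 and 4.82, 4.28, 4.56 and 26.1 CPM at day 21 (log2 difference -2.99 ± 0.52, adjusted p = 0.00805 by edgeR). Ntn1 (netrin 1) and Slit3, both axon guidance ligands, had log2 differences of -1.78 and -0.88. In LLC the log2 differences were -0.34 for Penk, -1.23 for Gpc3, -0.01 for Ntn1 and -0.18 for Slit3.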
